A study of Mus musculus with 15 samples.

Results

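Interferon-inducible GTPases are large GTP-binding proteins that coat the vacuoles of intracellular pathogens and take part in autophagy and inflammasome signalling. Described here are 9 listed genes of the 2 main families, out of 32372 genes in the deposited count matrix. The guanylate-binding proteins are represented by Gbp2, Gbp3, Gbp5, Gbp7 and Gbp9, and the immunity-related GTPases by Igtp, Irgm1, Irgm2 and Iigp1. The genes were listed by name, all 9 were found in the matrix, and all 9 passed the filter on low counts. They were set against the Ifit genes, 6 members of the matrix that encode RNA-binding proteins induced by type I interferon, of which 5 passed that filter.

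The cells came from male C57BL/6J hTfR KI mice aged 3.5 months, and all 15 mice, controls included, carried the knock-in of a human transferrin receptor sequence. Each mouse was given 1 dose of 10 mg/kg of an antibody, either ATV:4D9, which binds the microglial receptor TREM2 and is carried across the blood-brain barrier by its transferrin receptor site, or ATV:RSV, the control. ATV:RSV mice were sampled at day 1 only and ATV:4D9 mice at days 1, 7, 14 and 28, 3 mice to a group, and every one of the 3 batches held a mouse from all 5 groups. Cells of the cortex and hippocampus were enriched with CD45 beads after dissociation of the tissue, and the later days of ATV:4D9 have no control of their own day. The matrix held 102043 cells, 5667 to 7596 per mouse, with 32341960 to 70307384 unique molecular identifiers (UMIs, 1 per captured RNA molecule) in a mouse.

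Type I interferons, such as interferon beta, signal through Ifnar1 and Ifnar2 to a complex with Stat2 and Irf9 that binds the interferon-stimulated response element (ISRE). Type II interferon, the product of Ifng, signals through Ifngr1 and Ifngr2 and acts at the gamma-activated site (GAS). The GTPases are classic targets of interferon gamma, and many of them also answer type I interferon, whereas the Ifit genes are mainly type I targets. Irgm1, Irgm2 and Igtp (also called Irgm3) are regulatory members that keep the effectors, among them Iigp1 (Irga6), inactive on the membranes of the cell itself.

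Some facts of the whole series bear on every value below. The 10 microglia markers summed to between 22766 and 24442.5 CPM (counts scaled to a library total that is the same for every mouse) in ATV:RSV mice and between 17880 and 19895 in ATV:4D9 mice at day 1, and none of the 10 was at 0. The 8 border macrophage markers summed to 16.5 to 20.02 CPM and 20.2 to 30.4 CPM in the same groups, and the 7 monocyte markers to 6.82 to 15.05 and 17.99 to 23.2 CPM. The 8 T cell markers summed to 35.5 to 47.8 CPM in ATV:RSV and 13.03 to 16.03 CPM at day 1 of ATV:4D9, the opposite direction. That sum is nearly the level of Il7r alone, which had 22919 UMIs over all mice against 23 to 125 UMIs for each of the other 7 T cell markers. Astrocyte markers (209 to 257 CPM and 129 to 139 CPM, mostly Slc1a3) were lower at day 1 too. So were oligodendrocyte markers (49.1 to 67.9 and 36.6 to 40.9 CPM) and neuron markers (9.62 to 13.1 and 5.68 to 7.78 CPM). Cells of ATV:4D9 mice at day 1 were also deeper, with medians of 8202 to 8996 UMIs per cell against 4975 to 5750. The part of the depth and of the markers in the results was not tested as such. The fits were recomputed without the cells that carried 3 or more markers of another type, and without the 5% of cells with most UMIs. Each left the 8 calls at day 1 described below at 8. Shares of cells were taken after thinning to a common depth.

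In the mm10 (GRCm38) annotation of GENCODE M21, Gbp5 (chr3:142493978-142522344), Gbp7 (chr3:142530342-142550149), Gbp3 (chr3:142560026-142573209) and Gbp2 (chr3:142620602-142638008) lie in that order on the plus strand of chromosome 3. Gbp9 (chr5:105077630-105139539) lies on the minus strand of chromosome 5, where its annotated span overlaps those of Gbp4 and Gbp8 on the same strand. Igtp (chr11:58199556-58207591) and Irgm2 (chr11:58199618-58222782) overlap each other on the plus strand of chromosome 11, and Irgm1 (chr11:48861968-48871683) lies farther away on the minus strand. Iigp1 lies on chromosome 18 and the Ifit genes on chromosome 19. All are annotated as protein coding, and 3′ libraries mostly read the ends of their transcripts. Of the 50-base words in the last 500 bases of their transcripts, none was shared with another gene for Gbp7, Igtp, Irgm2 and Iigp1, whereas the share was 4.28% for Gbp9, 3.55% for Gbp2, 2.74% for Gbp3 (shared with Gbp7), 1.99% for Irgm1 and 0.432% for Gbp5. It was higher for 2 of the Ifit genes, at 14.9% for Ifit3 (shared with Ifit3b) and 9.09% for Ifit1bl1 (shared with Ifit1bl2). The larger the share, the less certain it is that a gene's counts are its own.

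The regions upstream of these genes show which of the interferon elements are present. The RefSeq promoter table of GRCm38.p6, which spans 250 bases before to 50 after each start, held 7 of the 9 genes (not Gbp9 and Iigp1). An ISRE core was searched as GAAANNGAA and a GAS core as TTCNNNGAA, on both strands, and 8.56% of all 32851 promoters held the ISRE core, 8.30% the GAS core and 1.07% both. Each of the 7 genes had a promoter with at least 1 ISRE core, and those of Gbp5, Gbp7, Igtp and Irgm2 held a GAS core as well. Gbp3 has 2 promoters in the table, and its second held neither core. The promoters of the Ifit genes also differed. Those of Ifit1, Ifit3 and Ifit3b held 3 ISRE cores each and no GAS core, whereas of the 2 promoters of Ifit2 1 held a GAS core and no ISRE core and the other held neither. The 200 bases before the start of 5 GTPase genes and of Ifit3 are shown with every match in capitals, because these genes range from the strong rises to the falls at day 1 described below. A match of letters is a description and not a bound site.

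In Gbp2 (chr3:142620463-142620662, plus strand) the capitals are an ISRE core read on the opposite strand, 58 bases before the start, and in Gbp7 (chr3:142530136-142530335, plus strand) they are 2 GAS cores at 106 and 87 bases and an ISRE core at 52 bases.
Gbp2: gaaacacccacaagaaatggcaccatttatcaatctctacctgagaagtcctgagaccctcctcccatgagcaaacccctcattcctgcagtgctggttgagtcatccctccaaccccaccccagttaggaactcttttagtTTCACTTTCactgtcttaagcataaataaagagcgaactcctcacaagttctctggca
Gbp7: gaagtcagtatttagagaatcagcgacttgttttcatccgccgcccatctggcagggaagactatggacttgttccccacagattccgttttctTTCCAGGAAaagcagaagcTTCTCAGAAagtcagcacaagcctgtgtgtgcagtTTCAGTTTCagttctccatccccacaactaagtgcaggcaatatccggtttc

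Igtp (chr11:58199356-58199555, plus strand) and Irgm2 (chr11:58214777-58214976, plus strand) each held a GAS core and, 2 bases after its end, an ISRE core, at 45 and 34 bases before the start of Igtp and at 75 and 64 bases before that of Irgm2. Over the whole 300 bases of their promoters 250 of 336 aligned positions were identical (74.4%), against 48.99% to 55.7% for the other pairs of GTPase promoters.
Igtp: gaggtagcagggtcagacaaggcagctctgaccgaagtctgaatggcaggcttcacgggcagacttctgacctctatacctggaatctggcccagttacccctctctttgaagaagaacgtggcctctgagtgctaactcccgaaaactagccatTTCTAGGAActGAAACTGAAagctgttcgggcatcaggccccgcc
Irgm2: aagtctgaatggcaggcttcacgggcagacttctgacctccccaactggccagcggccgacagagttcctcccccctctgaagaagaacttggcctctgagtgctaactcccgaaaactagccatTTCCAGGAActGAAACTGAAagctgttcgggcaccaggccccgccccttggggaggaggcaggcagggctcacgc

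Irgm1 (chr11:48871421-48871620, minus strand) held 2 overlapping ISRE cores from 30 bases before its start, and Ifit3 (chr19:34583329-34583528, plus strand) held 3 separate ISRE cores at 155, 121 and 102 bases, read on the opposite strand.
Irgm1: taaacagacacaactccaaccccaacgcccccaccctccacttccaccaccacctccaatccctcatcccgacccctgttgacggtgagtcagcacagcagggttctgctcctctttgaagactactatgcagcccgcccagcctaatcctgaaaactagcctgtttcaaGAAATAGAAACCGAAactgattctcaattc
Ifit3: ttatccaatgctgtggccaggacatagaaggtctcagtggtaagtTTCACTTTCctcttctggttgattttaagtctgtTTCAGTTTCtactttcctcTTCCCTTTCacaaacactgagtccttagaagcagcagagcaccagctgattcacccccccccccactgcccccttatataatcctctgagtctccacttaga

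At day 1 the GTPases did not move as a block. Compared with ATV:RSV, 6 of the 9 genes were higher in ATV:4D9 mice (Iigp1, Gbp2, Gbp5, Irgm1, Igtp and Gbp3), 2 were lower (Gbp7 and Irgm2) and Gbp9 did not pass the test. Changes were tested with limma-voom on counts summed per mouse and called where the Benjamini-Hochberg adjusted p, over all genes tested, was under 0.05, and CPM values use library sizes scaled by TMM. Day 1 was a broad change, in which 69.2% of the 14260 genes tested were called, 34.7% higher and 34.6% lower, and the counts of 6 and 2 have to be read against these shares. The median log2 fold change was 0.83 over the 9 GTPases and -0.05 over all genes tested. Scaling by library size alone moved the median of all genes to -0.29 and the split of all calls from 4942 higher of 9872 to 3690 of 10649.

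Iigp1, an effector that loads onto pathogen vacuoles, had the highest fold of the 9 genes. Its level was 2.92, 0.289 and 0.907 CPM in ATV:RSV replicates 1, 2 and 3 (143, 12 and 38 UMIs) and 21.1, 23.8 and 21.9 CPM in the ATV:4D9 mice at day 1. The groups did not overlap, but the controls differed among themselves, with ATV:RSV replicate 1 far above the other pair. The fold was 22.6 (4.50 on the log2 scale with an SE of 0.399, and an adjusted p of 5.65e-08 by limma-voom). Leaving out ATV:RSV replicate 1 moved the log2 fold change to 5.40, and leaving out replicate 2 of that group moved it to 3.71.

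Gbp2, which assembles on pathogen vacuoles and bacteria, was the most even of the risers between mice. Its level was 4.498, 4.29 and 4.22 CPM in ATV:RSV and 23.0, 22.5 and 22.5 CPM at day 1 of ATV:4D9. Every treated mouse stood far above every control, by 5.21-fold (2.38 on the log2 scale with an SE of 0.0773, and an adjusted p of 6.54e-13 by limma-voom).

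Gbp5, known for promoting assembly of the NLRP3 inflammasome, was 18.3, 14.9 and 16.1 CPM in ATV:RSV and 35.2, 46.4 and 49.01 CPM at day 1, a 2.61-fold rise (log2 1.38, SE 0.131, limma-voom adjusted p = 1.26e-07). Gbp3, another vacuole-targeting family member, was 12.2, 11.6 and 10.6 CPM against 13.4, 14.9 and 17.9 CPM. It rose by 1.32-fold without overlap (log2 0.40, SE 0.109, limma-voom adjusted p = 0.00373). This was the only rise among the 6 that was lost under an alternative, scaling by library size alone (log2 0.17, adjusted p = 0.156).

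The regulatory immunity-related GTPases split. Irgm1, which regulates autophagy and the effectors, was 26.5, 16.6 and 22.9 CPM in ATV:RSV and 54.4, 48.0 and 52.4 CPM at day 1, and rose by 2.37-fold (log2 1.24, SE 0.144, limma-voom adjusted p = 1.21e-06). Igtp was 28.8, 25.0 and 27.0 CPM against 47.1, 48.6 and 48.6 CPM, and rose by 1.78-fold (log2 0.83, SE 0.0523, limma-voom adjusted p = 9.50e-10). Irgm2 went the other way. It was 24.7, 21.1 and 23.0 CPM in ATV:RSV and 18.9, 18.3 and 18.4 CPM at day 1, with every treated mouse below every control (log2 -0.30, SE 0.0619, limma-voom adjusted p = 0.000402). In CPM, Igtp and Irgm2, whose promoters are alike, thus differed in direction, which did not hold for Irgm2 in UMIs per 100 cells.

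Gbp7 was lower at day 1. Gbp7, which has been linked to oxidative and autophagic killing of bacteria, was 61.4, 67.9 and 63.6 CPM in ATV:RSV and 36.6, 32.8 and 50.01 CPM at day 1, again without overlap. The log2 difference was -0.72 (SE 0.114), with an adjusted p of 3.42e-05 by limma-voom. Gbp9 was 10.8, 9.65 and 8.71 CPM against 10.5, 10.9 and 9.97 CPM, with overlapping groups and a log2 difference of 0.11 (SE 0.0812, limma-voom adjusted p = 0.255). Scaling by library size alone turned the difference of Gbp9 to -0.13 and left the directions of the other 8 as they were.

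CPM is a share of a library, and the libraries of ATV:4D9 mice at day 1 were deeper per cell. In UMIs per 100 cells Gbp7 was still lower, at 27.3 to 39.0 at day 1 against 41.1 to 42.7 in ATV:RSV. Irgm2 was 14.3 to 16.9 UMIs per 100 cells at day 1 and 12.8 to 17.2 in ATV:RSV, so that on this scale its groups overlapped and its mean was not lower but slightly higher at day 1 (15.5 ± 1.33 against 14.97 ± 2.19, SD, n = 3). Gbp9 was 7.77 to 9.36 UMIs per 100 cells against 5.63 to 7.54, without overlap. With the deeper libraries, the 6 genes that rose in CPM were bound to be higher on this scale too, so their values here add no support. They did not overlap, from 0.177 to 2.04 up to 17.1 to 19.9 for Iigp1 and from 2.62 to 3.13 up to 17.5 to 20.5 for Gbp2. The share of all genes without overlap on this scale was not computed.

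**Figure D1:**
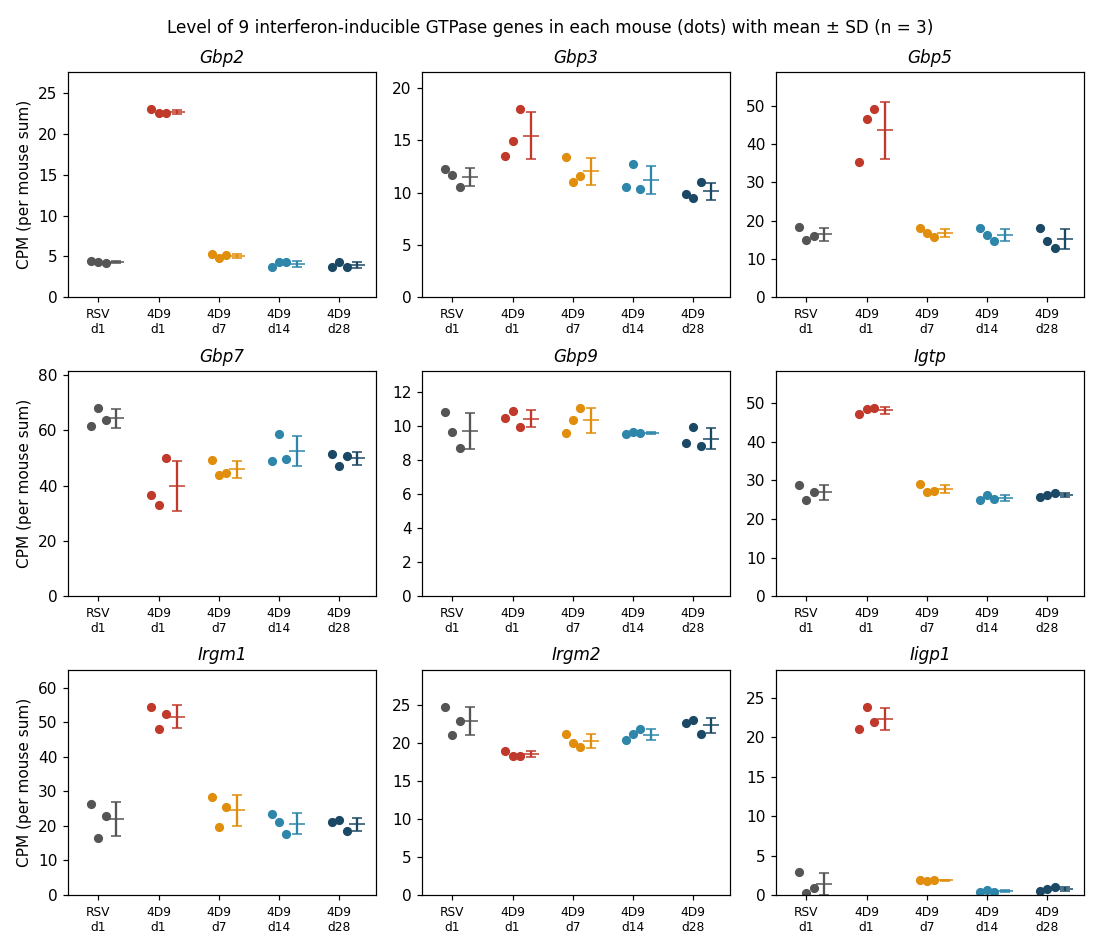
Level of each of the 9 GTPases in every mouse, in CPM on a linear axis from 0, by group, where dots are mice and bars are means with SD (n = 3). The risers stand apart at day 1, from 21.1 to 23.8 CPM for Iigp1, while Gbp7 lies below the ATV:RSV mice in all 12 treated mice.

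The 5 tested Ifit genes, in contrast, all rose, by 5.71-fold to 18.8-fold. Ifit3 was 20.4, 5.91 and 8.90 CPM in ATV:RSV and 180, 177 and 194 CPM at day 1, a 17.4-fold rise (log2 4.12, SE 0.246, limma-voom adjusted p = 5.41e-10). Ifit1, a sensor of foreign RNA caps, was 5.54, 1.45 and 2.72 CPM against 49.6, 60.4 and 47.3 CPM (18.02-fold). Ifit2 was 11.7, 5.31 and 5.06 CPM against 116, 148 and 130 CPM (18.8-fold). Ifit3b and Ifit1bl1 rose by 15.8-fold and 5.71-fold, Ifit1bl2 was too low to be tested, and 5 of 5 tested genes were called. Among the GTPases only Iigp1 reached the folds of Ifit1, Ifit2 and Ifit3. ATV:RSV replicate 1 was the highest control for these 3 Ifit genes, as it was for every GTPase but Gbp7. Its distance from the other controls was large for Iigp1, while Gbp2 differed little between the controls.

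Lists of further type I and type II targets were set beside the GTPases, as a description of counts and medians, which have to be read against the 34.7% of all genes called higher and 34.6% called lower in this comparison. The type I list held 20 genes other than the Ifit genes, and 20 of 20 rose, with a median log2 fold change of 3.84. They ranged from Trim30a at 1.10, Herc6 at 1.31 and Mx2 at 1.41 to Oas3 at 4.77, Oasl1 at 5.37 and Rsad2 at 5.37. Of 15 genes listed as targets of type II interferon 11 were tested, 9 rose and 2 did not pass, with a median of 1.07. The highest were Cxcl9, a chemokine (2.72), Cd74, the invariant chain of MHC class II (2.69), and Cd274, the ligand of PD-1 (2.02). At the low end Irf1 was called at 0.20 with overlapping groups (limma-voom adjusted p = 0.0292). Socs1 (-0.04, adjusted p = 0.766) and H2-DMa (-0.14, adjusted p = 0.134) did not pass the test. Ciita, the master regulator of MHC class II, was too low to be tested, at 0.0642 to 0.126 CPM at day 1 and 0.0483 to 0.102 CPM in ATV:RSV. Ido1, Nos2 and Ubd were not tested either. The medians were 0.83 over the 9 GTPases, 1.07 over the type II list and 3.84 over the type I list. The single GTPases spanned -0.72 to 4.50, and no test compared the lists, so the medians do not tell the pathways apart.

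Among interferon genes themselves, Ifnb1, which encodes interferon beta, was detected at day 1. It had 290, 343 and 453 UMIs in 72, 113 and 101 cells of the ATV:4D9 mice at day 1, against 17, 1 and 1 UMIs in the ATV:RSV mice (log2 6.23, SE 1.31, limma-voom adjusted p = 0.000533). Ifng had 2 UMIs in 2 cells of the whole series, 1 in replicate 1 of day 14 and 1 in replicate 1 of day 28. It had 0 UMIs in all 6 mice of the day 1 comparison, which allows a share of up to 0.0409% to 0.05002% of cells with a UMI per mouse, by counting error only. Ifna2, Ifnk and Ifnl2 had 1 UMI each, and Ifna1, Ifna4, Ifna5, Ifne and Ifnl3 had none. RNA of cells outside the dissociated cell fraction was not measured.

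Of the receptors, Ifngr1, the ligand-binding chain for interferon gamma, fell by 0.92 on the log2 scale, from 649 to 678 CPM in ATV:RSV down to 316 to 382 CPM at day 1. Ifnar1 fell by 0.19, Ifnar2 rose by 0.14 (limma-voom adjusted p = 0.0336), and Ifngr2 was not called (-0.02, adjusted p = 0.637). The rise of Ifnar2 is smaller than the move of the median of all genes under scaling by library size alone, given above. Among the signalling genes Stat2 rose by 1.15 and Irf9 by 0.51, both of the complex that binds the ISRE, and 5 of 8 tested fell, where 34.6% of all genes did, led by Irf2 (-0.56), Jak1 (-0.42) and Tyk2 (-0.18).

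Other members of the GTPase families also went both ways. Of 18 further genes listed 13 were tested, 9 rose and 2 fell, where 34.7% and 34.6% of all genes did, with a median log2 fold change of 0.92. Gbp6 (3.71), Ifi47 (3.49) and Tgtp2 (3.41) rose the most. The less studied family members 9930111J21Rik2 (-0.96) and 9930111J21Rik1 (-0.91) fell, and Irgc1 (0.15) and Gbp8 (0.17) were not called. Gbp6, for example, was at 0.0724 to 0.736 CPM in ATV:RSV and 3.47 to 4.51 CPM at day 1.

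**Figure D2:**
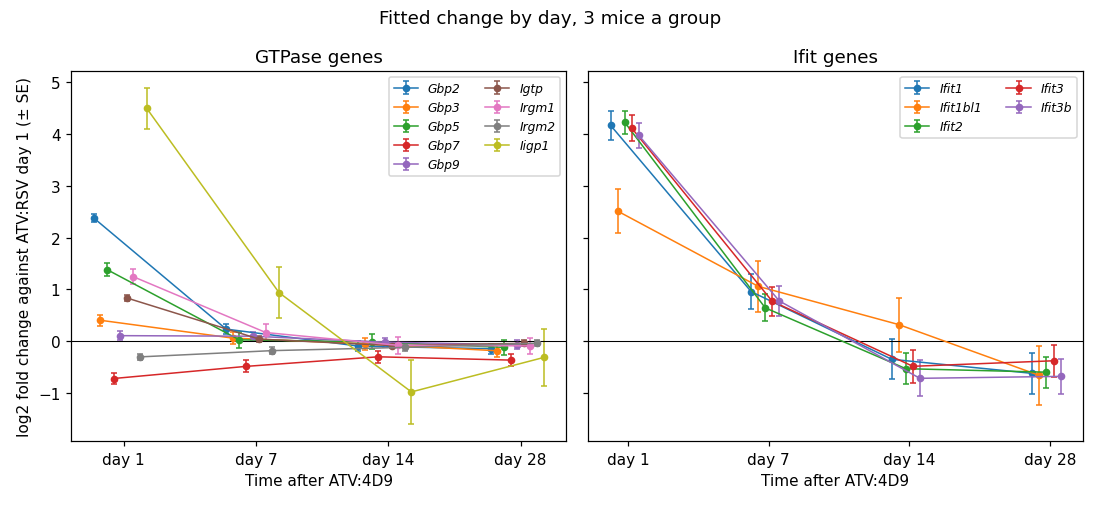
Log2 fold change of each GTPase and each tested Ifit gene against ATV:RSV at days 1, 7, 14 and 28 of ATV:4D9, with SE from limma-voom. An adjusted p under 0.05 was reached at day 1 by 8 GTPases and 5 Ifit genes, and at day 7 by Gbp7 (-0.49).

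By day 7 the genes that had risen were lower again. In the direct comparison of day 7 with day 1, 6 of the 9 GTPases were lower, in a contrast in which 66.9% of all genes were called and 33.9% were called as lower. These were the 6 that had risen: Iigp1 fell by 3.56 on the log2 scale, Gbp2 by 2.15, Gbp5 by 1.36, Irgm1 by 1.08, Igtp by 0.80 and Gbp3 by 0.34 (limma-voom adjusted p from 1.94e-12 for Gbp2 to 0.0119 for Gbp3). The fall of Gbp3 was lost under scaling by library size alone (adjusted p = 0.0994) and without replicate 2 (0.0513) or replicate 3 (0.0514) of day 7. Gbp7 (0.23, adjusted p = 0.0899), Irgm2 (0.12, adjusted p = 0.109) and Gbp9 (-0.01, adjusted p = 0.917) were not called. Gbp7 passed the test as higher at day 7 than at day 1 without replicate 3 of day 1 (0.40, adjusted p = 0.000895) and under scaling by library size alone (0.38, adjusted p = 0.00704), which also gave a call for Irgm2 (0.27, adjusted p = 0.00244). The 5 tested Ifit genes all fell, by 1.45 to 3.59. Over the 5 groups, a moderated F test called 8 of the 9 GTPases, all but Gbp9 (adjusted p = 0.259), where 66.5% of all genes were called.

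Against ATV:RSV at day 7, 1 of 9 GTPases was called, as lower, where 3.98% of all genes were called and 0.996% were called as lower. This was Gbp7, at 49.4, 43.7 and 44.6 CPM at day 7 against 61.4, 67.9 and 63.6 CPM in ATV:RSV (log2 -0.49, SE 0.116, limma-voom adjusted p = 0.0253). The difference kept its size but lost its call without replicate 2 (adjusted p = 0.0942) or replicate 3 (0.111) of day 7 and without ATV:RSV replicate 2 (0.108) or replicate 3 (0.0618). In cells of the deposited cluster 0 it was -0.50 (adjusted p = 0.00152), where 4.28% of genes were called, and in cluster 1 it was -0.55 (adjusted p = 0.000198), where 5.76% were called.

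Iigp1 was at 1.95, 1.77 and 1.88 CPM at day 7, between the controls, and was not called (log2 0.94, SE 0.489, limma-voom adjusted p = 0.363). That result rested on ATV:RSV replicate 1: without it the difference was 1.84 (adjusted p = 0.0133). It was also called without cells with markers of another type (1.39, adjusted p = 0.0467) and without the 5% of cells with most UMIs (1.503, adjusted p = 0.0339). Gbp2 was at 5.26, 4.82 and 5.19 CPM, above all 3 controls, but did not pass the test (0.23, adjusted p = 0.232). Irgm2 did not either (-0.18, adjusted p = 0.144), except under scaling by library size alone (-0.28, adjusted p = 0.0215). The Ifit genes gave 0 calls of 5 with limma-voom, edgeR and DESeq2, with 5 of 5 at an unadjusted p under 0.05 and log2 differences of 0.64 to 1.06. Without ATV:RSV replicate 1, 4 of 5 were called (1.07 to 1.49).

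At days 14 and 28 no GTPase was called against ATV:RSV with limma-voom, edgeR or DESeq2, where 0.4% and 0% of all genes were called with limma-voom. At day 28 571 genes had an unadjusted p under 0.05, and edgeR called 0 and DESeq2 14 genes of all. At each of these days 1 gene had an unadjusted p under 0.05, and it was Gbp7. Its level was 48.7, 58.6 and 49.7 CPM at day 14 (log2 -0.30, adjusted p = 0.656) and 51.5, 47.2 and 50.8 CPM at day 28 (-0.37, adjusted p = 1.000). In all 12 treated mice Gbp7 was therefore below all 3 controls, the only one of the 9 genes of which this was so. The share of all genes of which this was so was not computed. No control of a later day was measured, so that the antibody and the day of sampling cannot be told apart. Iigp1 was 0.445, 0.609 and 0.440 CPM at day 14 and 0.545, 0.818 and 1.08 CPM at day 28. Between days 7 and 14, 0 of 9 GTPases were called with limma-voom, edgeR or DESeq2, where 0.912% of genes were called, and 3 had an unadjusted p under 0.05 (Gbp2, Igtp and Iigp1). Iigp1 was lower at day 14 by 1.92 (adjusted p = 0.213), and was called without ATV:RSV replicate 1 (adjusted p = 0.00831), a mouse of neither group. Ifit3b was the only Ifit gene called as lower at day 14 than at day 7 with limma-voom (-1.495, adjusted p = 0.0425), while with the replicate block Ifit2 (-1.22, adjusted p = 0.0412) and Ifit3 (-1.28, adjusted p = 0.0318) were called as lower too, and with DESeq2 Ifit1, Ifit2 and Ifit3 were (adjusted p from 0.0103 to 0.0299).

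The order of the group means differed between the genes. The 6 risers had their highest mean at day 1, and for Gbp2 the ranges of ATV:RSV, day 14 and day 28 overlapped. Gbp7 had its highest mean in ATV:RSV (64.3 ± 3.35 CPM, SD, n = 3), followed by day 14 (52.4 ± 5.45), day 28 (49.8 ± 2.32), day 7 (45.9 ± 3.06) and day 1 (39.8 ± 9.04). Each pair of neighbours among the treated groups overlapped in its ranges, and ATV:RSV did not overlap with any of them. Irgm2 had its highest mean in ATV:RSV (22.9 ± 1.83) and its lowest at day 1 (18.5 ± 0.345).

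At the level of cells, the mean share with a UMI after thinning moved in the direction of CPM for the genes called at day 1. Every cell was thinned at random to 3385 UMIs, which left out 10204 shallower cells of 102043 (2584 in ATV:RSV and 977 at day 1). Gbp2 was detected in 1.36% ± 0.0920 of cells in ATV:RSV and in 4.85% ± 0.0693 at day 1 (SD, n = 3), or 2.46% and 10.4% without thinning. Iigp1 was detected in 0.212% ± 0.162 and 3.39% ± 0.314, and any of the 6 Ifit genes in 2.81% ± 0.683 and 25.8% ± 0.638. Gbp7 was detected in 19.1% ± 0.573 of ATV:RSV cells and in 10.6% ± 2.31 at day 1, and in 12.7%, 15.5% and 15.1% at days 7, 14 and 28. The ranges of the groups did not overlap for any of these 3 GTPases at day 1, nor for Gbp5, Igtp, Irgm1 and Irgm2. For shares of cells, the part of all genes without overlap was not computed. Irgm2 went from 7.56% to 5.35%, but without thinning it was at 13.3% in ATV:RSV and 13.3% at day 1. Gbp3 went from 3.78% to 4.18% and Gbp9 from 3.34% to 3.07%, both with overlapping ranges. No cell type that lacks these genes was set apart in the files, so that the share of detections due to free RNA was not measured.

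**Figure D3:**
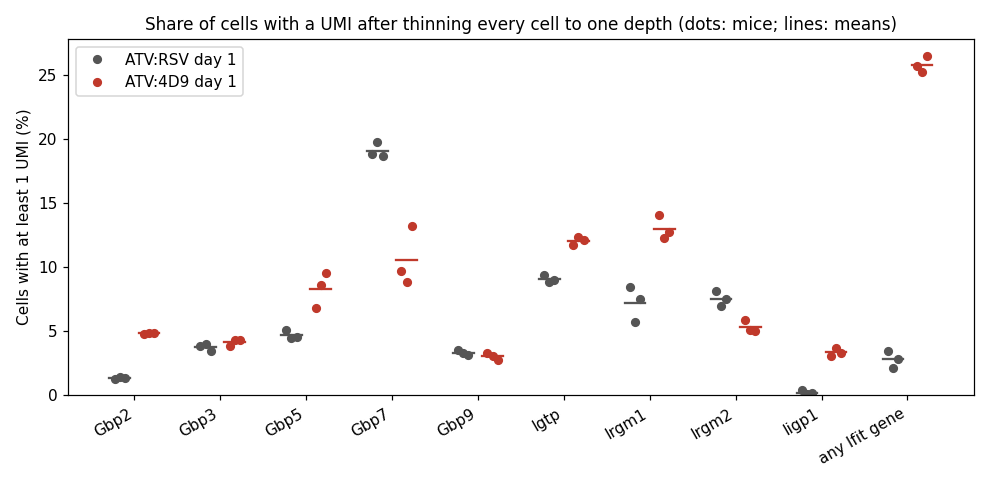
Percent of cells with at least 1 UMI of each gene after thinning every cell to 3385 UMIs, in ATV:RSV and in ATV:4D9 mice at day 1; dots are mice and lines are means (n = 3). Gbp7 drops from 19.1% to 10.6%, while detection of any Ifit gene rises from 2.81% to 25.8%.

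UMIs of the GTPases were more common in cells that also held an Ifit UMI. At day 1, Iigp1 was detected in 12.1% of cells with an Ifit UMI and in 0.367% of those without (means of 3 mice), and 91.8% of the cells with an Iigp1 UMI also held an Ifit UMI. For Gbp2 the shares were 12.8% and 2.09%, and 68.0% of its cells held an Ifit UMI. For Irgm1 they were 26.9% and 8.19%, for Igtp 22.9% and 8.34%, and for Gbp5 16.3% and 5.58%. The genes that fell did so while keeping this association, with 16.7% against 8.45% for Gbp7 and 8.57% against 4.23% for Irgm2. Gbp7 was thus detected at day 1 in fewer cells without an Ifit UMI than the 19.0% of such cells in ATV:RSV. Shares were higher among cells with an Ifit UMI in 15 of 15 mice for 7 genes, and in 14 of 15 for Gbp3 and Irgm2. How often genes outside the list show this was not computed, so these counts do not set the GTPases apart. All cells were thinned to the same number of UMIs, but cells of a mouse share a library, and this is a description with no test.

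**Figure D4:**
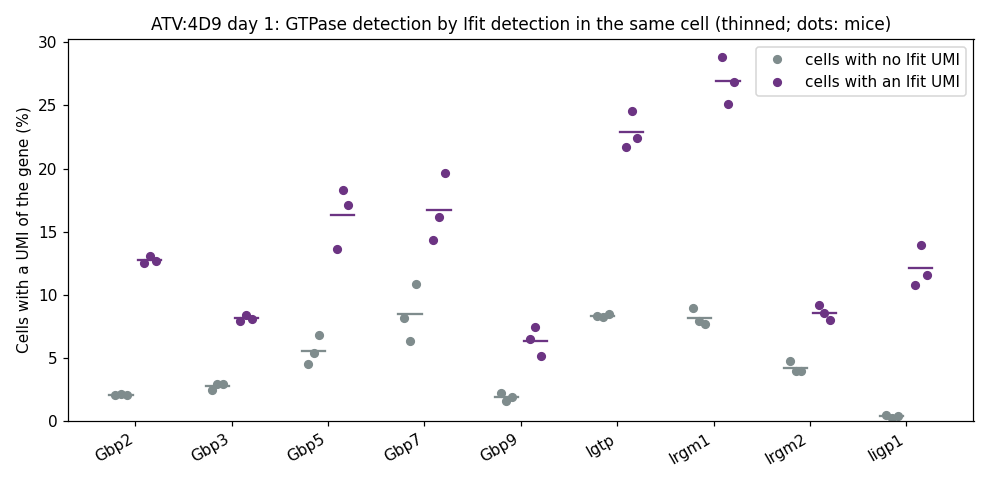
Percent of thinned cells with a UMI of each GTPase at day 1 of ATV:4D9, among cells with and cells without an Ifit UMI; dots are mice and lines are means (n = 3). The gap is widest in proportion for Iigp1, at 12.1% against 0.367%.

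The authors' clusters numbered 0, 1 and 2 were used to look at the genes within groups of like cells. The clusters were made from the expression of these cells, those of treated mice included, so that levels between clusters are a description. The cells compared within a cluster were picked by that same expression, so tests and calls within a cluster are a description too. Of the cells of ATV:4D9 mice at day 1, 87.3% to 93.5% were in cluster 2 (5607 to 6597 cells per mouse), against 1.12% to 3.23% in the other 12 mice (74 to 245 cells). In those 12 mice, cluster 2 nonetheless held a median of 73.9% of all Iigp1 UMIs (40.0% to 93.0%), near the 56.0% for Ifit3 and 59.9% for Ifit1. It held 14.5% of Gbp2 UMIs and between 2.03% and 5.72% for the other 7 GTPases, where it had 1.46% to 4.46% of all UMIs. Iigp1 therefore shared with the Ifit genes a concentration in a small group of cells outside day 1, which the other 8 GTPases did not show to that degree.

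Within clusters the day 1 comparison looked different, as a description of cells grouped by their expression. In cluster 0, 1 of 9 GTPases was called, against 5.09% of genes. This was Gbp2, at 3.69 to 4.39 CPM in ATV:RSV and 5.83 to 9.84 CPM at day 1 (log2 0.93, limma-voom adjusted p = 0.0260), and the call was lost without replicate 1 (adjusted p = 0.142) or replicate 3 (0.142) of day 1. In cluster 1, 1 of 8 was called, against 9.18% of genes. This was Gbp7, lower by 0.55 (limma-voom adjusted p = 0.0180), and the call was lost without replicate 1 (adjusted p = 0.155) or replicate 2 (0.138) of day 1. With the batch as a replicate block Gbp2 was called in cluster 1 as well (0.94, adjusted p = 0.0148, against 0.91 and 0.0625 without it), which made 2 calls. In both clusters 4 of 4 tested Ifit genes rose, by 1.87 to 2.33 in cluster 0 and by 1.80 to 2.96 in cluster 1. Only 211 to 383 cells per mouse were left in cluster 0 and 180 to 555 in cluster 1 at day 1.

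Few cells of ATV:RSV mice were in cluster 2 (76 to 165 per mouse). Every GTPase but Gbp7 had a higher mean level there than in clusters 0 and 1 of the same mice. This ranged from clear, as for Irgm1 (71.5 CPM against 20.8 and 22.8), to slight, as for Irgm2 (28.9 against 21.8 and 27.3). Gbp7 was at 62.2 CPM against 63.9 and 73.0. Iigp1 was at 81.2, 14.4 and 23.2 CPM in cluster 2 (127, 10 and 21 UMIs) against 21.1, 23.0 and 20.9 CPM at day 1. The ATV:RSV cells of cluster 2 were grouped with treated cells by expression, so the calls that follow are a description. By limma-voom 6 of 9 GTPases were lower at day 1 in cluster 2, where 36.8% of genes were called and 19.3% were called as lower, led by Gbp9 (-1.18), Iigp1 (-0.89) and Irgm2 (-0.88). Of 4 tested Ifit genes 1 was lower there (Ifit3b, -1.01, adjusted p = 0.00229), and the others were at -0.55 to -0.66 and were called with the replicate block (adjusted p from 0.0116 to 0.0360). All 6 GTPase calls were lost without ATV:RSV replicate 1, which left 2 controls. Gbp7 then stood at -0.74 (adjusted p = 0.0777, against -0.87 with all mice), Gbp9 at -0.79 (0.0601), Gbp3 at -0.55 (0.337), Irgm2 at -0.53 (0.157) and Irgm1 at -0.14 (0.736), and Iigp1 turned to 0.15 (0.800). Cells with 3 or more markers of another type made up 6.58% to 8.48% of cluster 2 in ATV:RSV mice and 1.61% to 2.69% at day 1, and without them 5 GTPases were called in cluster 2, with Iigp1 at -0.25 (adjusted p = 0.507).

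**Figure D5:**
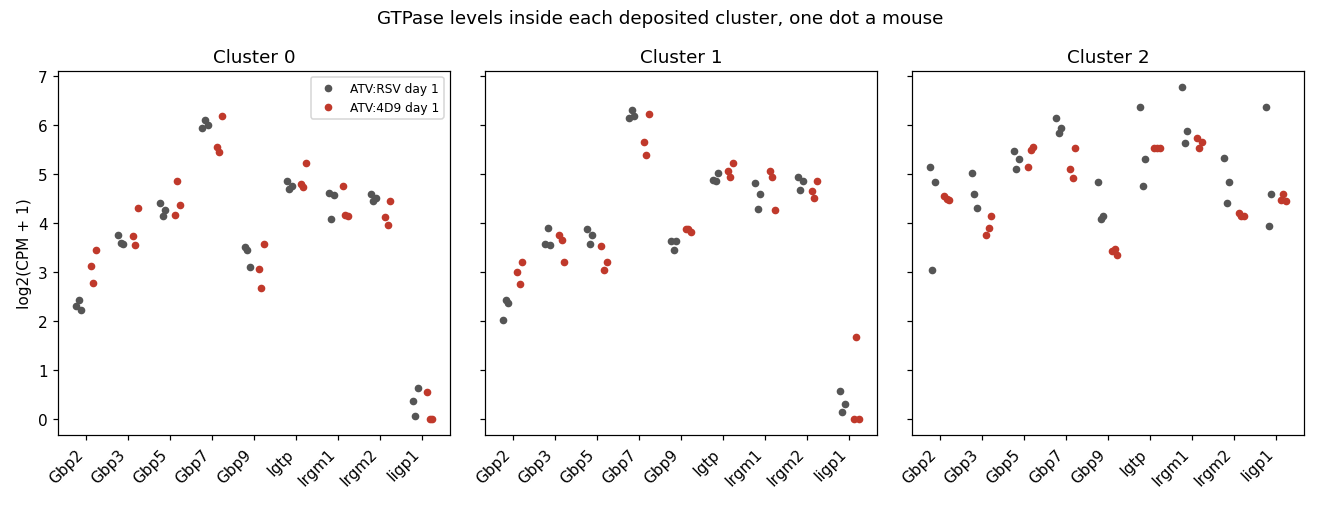
Level of each GTPase, as log2(CPM + 1), in the cells of clusters 0, 1 and 2, in ATV:RSV and ATV:4D9 mice at day 1; dots are mice. In both groups the values of Gbp2, Gbp5, Irgm1 and Iigp1 in cluster 2 lie above all those in clusters 0 and 1. Iigp1 in cluster 2 spans 14.4 to 81.2 CPM in the ATV:RSV mice.

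Across the 15 mice, the mean log2 CPM of the 9 GTPases was compared with that of every gene outside the lists. The most alike by Pearson r were Zbp1, a sensor of nucleic acids (0.989), Ifi207 (0.988), Ly6a (0.984), Ddx58, which encodes the RNA sensor RIG-I (0.984), and Cdc20, a regulator of mitosis (0.983), and the median over all genes outside the lists was -0.11. Among the 9 genes r with their mean was 0.989 for Igtp, 0.982 for Iigp1, 0.972 for Gbp2 and 0.970 for Irgm1, and it was -0.59 for Gbp7 and -0.65 for Irgm2. These values are carried by the gap between day 1 and the other groups. By deviations from group means, the most alike were Ifi204 (0.961), Eef1akmt4 (0.944), Ifitm3 (0.934), Zbp1 (0.908) and Ifi209 (0.893). On that measure Irgm2 moved with the mean (0.69) and Ifit3 did so closely (0.956), whereas Gbp2 (0.32) and Gbp7 (0.14) did little. Points share a library, and the mean includes each of the 9 genes. Iigp1 itself had an r of 0.908 by deviations. ATV:RSV replicate 1 was the highest control for Ifit3 and for every GTPase but Gbp7, and its part in these values was not tested.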

How the data were processed

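Single-cell libraries of CD45-enriched brain cells were prepared with a 3′ kit in which a UMI marks each captured molecule. The authors mapped reads to mm10 (Cell Ranger 4.0.0 in the submitters' processing notes, where the study's methods name later versions) and used Seurat to filter and cluster cells. The deposited matrix holds raw UMI counts, 1 value per gene and cell, and the deposited table of cells gives the UMI counts, the percent of mitochondrial UMIs, the mouse and the cluster of each cell. Matrix sums were equal to the deposited totals in all 102043 cells, which had 667 to 24995 UMIs, and 1283 of 100747 barcodes occurred in more than 1 library. The files held no column of a sample that could not be mapped. No doublet caller was run, and a removal of doublets by the authors is not given in the sources used here.

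Groups came from the labels. Counts were summed per mouse (32341960 to 70307384 UMIs), filtered with filterByExpr (minimum count 10, minimum total 15), TMM-scaled and then tested by limma-voom (versions: limma 3.58.1, edgeR 4.0.16, R 4.3.3) in 1 fit of group means over 15 mice, and within each cluster for mice with at least 20 cells in it. The precision of a summed count is set by its UMIs, and intervals or limits cover counting error only. Scripts were tested on simulated data. Alternatives were other scalings, no filter, edgeR's quasi-likelihood test, DESeq2 1.42.0, a replicate block, the mice of the 2 groups alone, leaving out each mouse, cells carrying 3 or more markers of other types or, in each mouse, the top 5% of cells by UMIs, and, added after seeing the data, the cells of cluster 0 or 1 alone at day 7.

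Per the labels every batch contained the 5 conditions, which makes the batch number a pairing of mice. Mice of 1 batch had deviations from their group means with a mean Pearson r of 0.0539 (30 pairs, -0.225 to 0.259), and mice of different batches -0.0267 (60 pairs). All groups are of separate mice.

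The 9 genes and the gene lists were chosen with earlier results of these data known. Named are the 9 genes, the Ifit genes, up to 3 highest and 3 lowest of each other list at day 1, interferon ligands and receptors, and the 5 genes outside the lists most like the 9 by each correlation. A signalling gene of the lists is not reported here.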

Additional observations from a re-analysis of the deposited data

Results flagged for a closer look

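A difference between days of the same antibody was listed: in the test of day 7 against day 1 of ATV:4D9 itself, 6 of 9 GTPases were called with limma-voom, all 6 lower at day 7. Of all genes 66.9% were called in that test, and 33.9% were called as lower. The 6 genes were Iigp1, Gbp2, Gbp5, Irgm1, Igtp and Gbp3, the genes that had been higher at day 1 than in ATV:RSV.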

How the results depend on the processing

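Counts of called genes were recomputed under each alternative, and of 189 such counts 168 stayed within 1.5 times. At day 1 against ATV:RSV, 8 GTPases were called under every alternative but scaling by library size alone (7), and 5 Ifit genes under all but the fit with no filter on low counts (6, with Ifit1bl2), with directions that held except for Gbp9 (-0.13 under scaling by library size alone). The replicate block changed 1 count of GTPases, to 2 in cluster 1, and no other count of GTPases. It added calls of Ifit genes between days 14 and 7 (Ifit2 and Ifit3) and in cluster 2 at day 1 (Ifit1, Ifit2 and Ifit3). At day 7 against ATV:RSV the count of 1 GTPase became 2 under scaling by library size alone, without cells with markers of another type and without the cells with most UMIs, and ranged from 0 to 2 with each mouse left out. The Ifit count of 0 became 1 without the cells with most UMIs and 1 in cluster 0 alone, and ranged from 0 to 4 (4 without ATV:RSV replicate 1). Between days 14 and 7 the count of 0 GTPases became 1 (Iigp1) without cells with markers of another type, without the cells with most UMIs and with the mice of the 2 groups alone. In cluster 1 the count of 1 became 2 with no filter on low counts. With each mouse left out it ranged from 0 to 1 in clusters 0 and 1 and from 0 to 6 in cluster 2.

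Signs were checked for all day 1 and day 7 differences from ATV:RSV in whole mice, and elsewhere only where a difference was called. In whole mice or clusters 0 and 1, those that turned were Gbp9 at day 1 and day 7 differences that were not called. Under scaling by library size alone these day 7 differences were Gbp3 (-0.036), Gbp5 (-0.069) and Igtp (-0.056). In cells of cluster 1 they were Gbp3 (-0.011), Gbp5 (-0.24), Gbp9 (-0.000885) and Igtp (-0.11), and in cluster 0 Gbp2 (-0.081). With each mouse left out in turn Gbp3 ranged from -0.017 to 0.11, Gbp5 from -0.042 to 0.11, Igtp from -0.013 to 0.093 and Irgm1 from -0.016 to 0.32. In cluster 2 at day 1, the called difference of Iigp1 ranged from -1.24 to 0.15, and turned to 0.15 without ATV:RSV replicate 1. The cause of these changes was not tested.

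Depth limits Iigp1 in the controls (12 UMIs in ATV:RSV replicate 2) and all genes in the small clusters. Shares of cells depend on the depth to which cells are thinned.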

Other observations

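Genes of processes linked to the GTPases were listed separately: enzymes that attach or process prenyl anchors of proteins, the autophagy conjugation machinery that guides GTPases to membranes, and inflammasome genes. All 21 were tested, and at day 1 against ATV:RSV 5 rose, 8 fell and 8 were not called, where 34.7% of all genes rose and 34.6% fell, with a median log2 fold change of -0.01. The highest were Il1b, which encodes interleukin 1 beta (1.95), Fntb, the beta subunit of farnesyltransferase (0.93), and Rce1, the protease that trims prenylated proteins (0.68). The lowest were Map1lc3a (-1.36), Atg7 (-0.57) and Atg12 (-0.45), all of the autophagy conjugation system. The calls at day 7 were Il1b (1.82) and Gabarap (0.20), both higher, beside 3.98% of all genes called.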
